A study of Drosophila melanogaster with 24 samples.

Results

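The proteasome subunits are the genes whose symbols start with Prosalpha or Prosbeta, or with Rpn or Rpt and a digit. By that rule 47 of the 16995 genes in the count table are subunits, 32 of them canonical and 15 paralogues with a suffix T or R, several of which are named for expression in testis. Of the canonical subunits, 14 form the core particle (7 alpha and 7 beta) and 18 the regulatory particle (6 ATPases of the base, 4 scaffold subunits and ubiquitin receptors of the base, and 8 subunits of the lid).

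Transcripts were counted in single brains of mated adult w1118 flies, a white-eyed laboratory strain with no transgene, with QuantSeq, a kit that primes on the poly(A) tail, so that a read marks the end of a transcript. There were 8 groups of 3 libraries: uninjured control flies and flies 1, 2 or 4 hr after traumatic brain injury (TBI), each labelled female or male. Injury was a single strike of a high impact trauma device on a vial of flies, so the trauma reached the whole body and not the head alone. The comparisons ask how each subunit differed from control at each time and whether that difference depended on the sex label.

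The proteasome degrades proteins tagged with ubiquitin. Its barrel-shaped core is built of stacked rings, outer rings of alpha subunits that gate the entry and inner rings of beta subunits, of which Prosbeta1, Prosbeta2 and Prosbeta5 cut peptide bonds. The regulatory particle binds the tagged protein through receptors such as Rpn10 and Rpn13, removes the ubiquitin chain with Rpn11 and unfolds the protein with the ring of ATPases Rpt1 to Rpt6. Neurons depend on this turnover at synapses and for clearing damaged proteins, and in flies the Cap'n'collar factor Cnc raises subunit genes together when proteasome activity is short.

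Total counts ran from 46943 to 1769669 per library, so that 3 counts were worth 1.99 to 50.7 CPM (counts scaled to the library total, adjusted by TMM). The labels of the female groups were at odds with roX1, a noncoding RNA of the male dosage compensation complex. Its level was 6.02 and 78.1 CPM in replicate 2 of the female 2 hr and 4 hr groups, and 712 to 1249 CPM in the other 10 female-labelled libraries, against 706 to 1013 CPM in the 12 male-labelled ones. The yolk protein gene Yp1 did not separate the labels either, as it was read in every library. It had 882, 449 and 148 reads in female-labelled controls and 926, 103 and 153 in male-labelled controls. After injury it had 197 to 29624 reads in female-labelled and 87 to 2311 in male-labelled libraries. These reads are not scaled for the depth of a library. Groups are therefore called female-labelled and male-labelled, and neither label is taken as settled. The 2 libraries with low roX1 also stood apart in neuronal markers. The sum of 6 marker genes (elav, nSyb, Syt1, brp, Syx1A, para) was 224 and 789 CPM there and 1520 to 3392 CPM elsewhere. Markers of the brain were present, with 6 of 6 neuronal and 6 of 6 glial genes detected. So were 9 of 9 photoreceptor and 5 of 5 hemocyte markers, and all 6 fat body markers but Fbp1. The photoreceptor sum (4259 to 14889 CPM) was above the neuronal sum in every library, and the fat body sum was 1320 to 35606 CPM. By contrast 3 of 8 testis markers (Mst84Da, can, aly) and 3 of 4 ovary markers (nos, vas, bcd) were at 0 in every library. The other listed testis and ovary markers had a count in some library.

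Nearly all reads were those of canonical subunits. A count was found for 31 of the 32, and 20 had a count in all 24 libraries. The 47 genes held 39554 reads, 0.209 to 0.304% of a library. The missing canonical subunit was Prosalpha1, with 0 reads in every library. Its neighbouring copy CG30382, named Prosalpha1R in RefSeq, also had 0 reads, and since reads shared by near-identical copies can be dropped in counting, the level of Prosalpha1 is uncertain.

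The 15 paralogues held 5 reads in all. Prosalpha4T1 had 1 read, in male-labelled 1 hr replicate 1. Prosbeta5R1 had 1 read there and 1 in female-labelled control replicate 2, and Rpn13R had 2 reads in female-labelled 1 hr replicate 1. The other 12 paralogues (Prosalpha3T, Prosalpha4T2, Prosalpha6T, Prosbeta2R1, Prosbeta2R2, Prosbeta4R1, Prosbeta4R2, Prosbeta5R2, Rpn12R, Rpt3R, Rpt4R and Rpt6R) had 0 reads in each library, which allows up to 3 reads per library. None of the 15 passed the filter on low counts. That filter left 29 subunits to test in the female-labelled libraries and in the fit of all 24, and 27 in the male-labelled libraries. Of the canonical subunits, 13 overlap a gene on the opposite strand in the Release 6 annotation, among them Prosbeta1, Prosbeta2, Prosbeta3, Prosbeta5, Rpt2 and Rpt4, and as no source used here gives the strand setting of the counting, reads of the partners cannot be told apart.

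The summed level of all subunits was 2001, 2180 and 1949 CPM in the female-labelled controls. The injured female-labelled libraries stood at 2729, 2205 and 2081 CPM (1 hr), 2168, 3762 and 2436 CPM (2 hr) and 1979, 3557 and 2488 CPM (4 hr). The highest sums belonged to the 2 libraries that stand apart, and at 1 and 2 hr but not at 4 hr no sum was as low as the median control. Male-labelled sums were 2197, 3016 and 1919 CPM in controls, 2072, 2291 and 2089 CPM at 1 hr, 2200, 3052 and 1956 CPM at 2 hr and 2131, 1690 and 2011 CPM at 4 hr. Here replicate 2 was the highest library in the control, 1 hr and 2 hr groups and the lowest at 4 hr, and each injured group overlapped its control. In RNA of a whole brain, fewer cells of a type and less RNA per cell cannot be told apart.

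**Figure D1:**
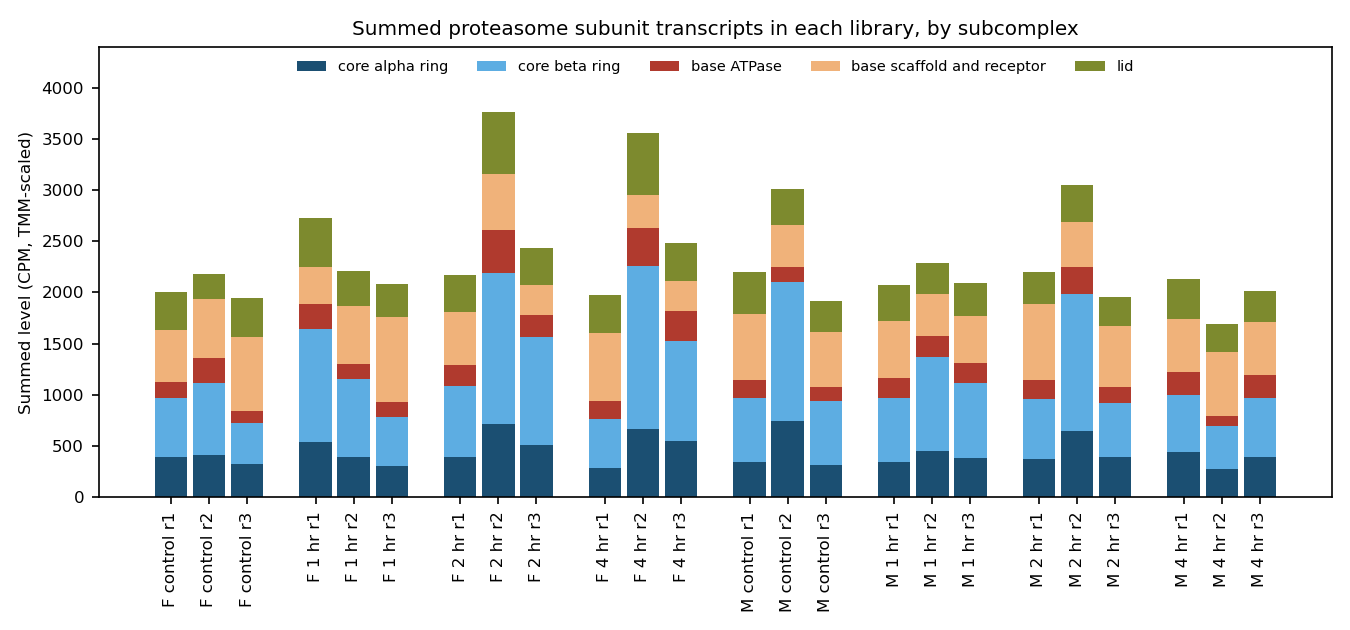
Summed level (CPM after TMM scaling) of the proteasome subunits in each of the 24 libraries, stacked by subcomplex, with F for female-labelled and M for male-labelled and r for replicate. The tallest bars are female 2 hr replicate 2 (3762 CPM) and female 4 hr replicate 2 (3557 CPM), and the shortest is male 4 hr replicate 2 (1690 CPM).

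No subunit was called changed at any time in either label (adjusted p below 0.05 and |log2FC| above 1, edgeR quasi-likelihood), and neither was any other gene (0% of the 5918 genes tested in female-labelled and 0% of the 4474 in male-labelled libraries, in each direction). DESeq2 and limma-voom also called 0 subunits, although DESeq2 called 27 other genes higher at 2 hr in female-labelled libraries. The paper used edgeR with the same limits stated in its methods and reported significant changes in both sexes, more of them in females. Its deposited comparisons give likelihood ratios and not a quasi-likelihood test, and the cause of the difference was not tested. The 6 comparisons with control share the control libraries of their label, and the 3 libraries of a group are separate brains, so the p-values measure the spread between these flies. Nothing used here states whether flies of a group shared a vial.

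A looser pair of limits, an unadjusted p below 0.05 and |log2FC| above 1, is called nominal here. Among female-labelled flies 3 subunits were nominally higher and 0 lower at 1 hr (Prosbeta2, Prosbeta3, Rpt2), against 1.39% of all genes tested higher and 0.27% lower. At 2 hr 3 were higher and 0 lower (Prosbeta2, Rpn11, Rpt2), against 6.93% and 0.203% of all genes. At 4 hr 4 were higher and 0 lower (Prosbeta2, Rpn11, Rpn3, Rpt2), against 4.78% and 0.304%. As shares of the 29 subunits these counts were 10.3%, 10.3% and 13.8%. DESeq2 gave 4, 6 and 5 such subunits at 1, 2 and 4 hr, and limma-voom 2, 1 and 5. Single libraries moved these counts. At 1 hr the 3 became 0 without control replicate 2, and 1 without control replicate 3 or 1 hr replicate 1. At 2 hr they became 1 without control replicate 2 or 2 hr replicate 2, and 5 without 2 hr replicate 1. At 4 hr the 4 became 2 without control replicate 1, control replicate 2 or 4 hr replicate 2, and 8 (5 higher, 3 lower) without 4 hr replicate 1. Without both libraries that stand apart, the counts were 5, 1 and 3. Here and below, shares of nominal genes are given for the main edgeR fit alone. They do not apply to counts from DESeq2, limma-voom, the replicate block, fits without a library or any other alternative. The shares of those fits are not given here, so their counts are not read as results about the subunits.

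The median log2FC over the 29 subunits in female-labelled flies was 0.17 at 1 hr, 0.75 at 2 hr and 0.83 at 4 hr, beside 0.05, 0.00 and 0.04 over all genes tested. It was -0.27 at 1 hr without 1 hr replicate 1, 0.32 at 2 hr without 2 hr replicate 2 and 0.22 at 4 hr without 4 hr replicate 2. The neuronal marker sum was 2643 to 3039 CPM in controls, 1520 to 3392 at 1 hr, 224 to 2661 at 2 hr and 789 to 2779 at 4 hr. Its means were 2896 CPM in controls and 2450, 1561 and 1790 CPM at 1, 2 and 4 hr. The part of these markers in the result was not tested. Fat body markers (6 genes, of which Fbp1 was at 0 throughout) summed to 35606 CPM in 1 hr replicate 1 and 35516 CPM in 2 hr replicate 2, against 1320 to 10412 CPM in the other libraries, and their part was not tested either. At 2 hr the sum of 9 photoreceptor markers was 9090, 14889 and 13748 CPM, above each control (4641 to 9011 CPM), and that of 10 immune peptide genes was 52539 CPM in replicate 2, against at most 3019 CPM in the other libraries. No gene of these lists was at 0 throughout, and their part was not tested.

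The signs of the values were counted by subcomplex, and no difference between subcomplexes was tested. At 1 hr in female-labelled flies the medians were 0.17 for the alpha ring, 0.40 for the beta ring, 0.17 for the ATPases, 0.30 for the lid and -0.07 for the scaffold subunits and receptors of the base, of which 2 of 4 were negative. At 2 hr 7 of 7 beta subunits, 5 of 5 tested alpha subunits, 5 of 6 ATPases and 5 of 7 tested lid subunits had a positive log2FC in female-labelled flies, with medians of 0.88, 0.23, 1.06 and 1.39. Of the scaffold subunits and receptors of the base, 3 of 4 were negative, with a median of -0.43. Their summed level was 524, 547 and 298 CPM at 2 hr against 507, 575 and 721 CPM in controls, so only replicate 3 lay below the controls. The 2 hr sums of the other subcomplexes overlapped their controls too. At 4 hr the medians were 0.93 for the beta ring, 0.14 for the alpha ring, 0.95 for the ATPases, 1.89 for the lid and -0.52 for the scaffold and receptors. In male-labelled flies at 1 hr 4 of 5 tested ATPases had a positive log2FC, with a median of 0.31. The other subcomplexes were mostly negative, with 0 of 5 tested alpha and 2 of 7 beta subunits positive. Of the scaffold subunits and receptors 0 of 4 were positive, and of the tested lid subunits 1 of 6. These 4 medians were -0.74, -0.56, -0.18 and -0.26. At 2 hr 3 of 5 tested ATPases and 3 of 5 tested alpha subunits were positive, with medians of 0.36 and 0.03. So were 4 of 4 scaffold subunits and receptors, 2 of 7 beta and 1 of 6 tested lid subunits, with medians of 0.04, -0.13 and -0.34. At 4 hr 7 of 7 beta and 5 of 5 tested alpha subunits had a negative log2FC, with medians of -0.86 and -0.51, while 4 of 5 tested ATPases had a positive one, with a median of 0.51. Of the scaffold subunits and receptors 1 of 4 was positive and of the tested lid subunits 3 of 6, with medians of -0.12 and -0.18. None of these single values passed the adjusted threshold. In sums per library, the male-labelled alpha ring at 4 hr (437, 270 and 389 CPM) overlapped its controls (346, 742 and 308 CPM). The beta ring (559, 422 and 574 CPM) lay below its controls (625, 1364 and 628 CPM), of which replicate 2 was by far the highest.

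**Figure D2:**
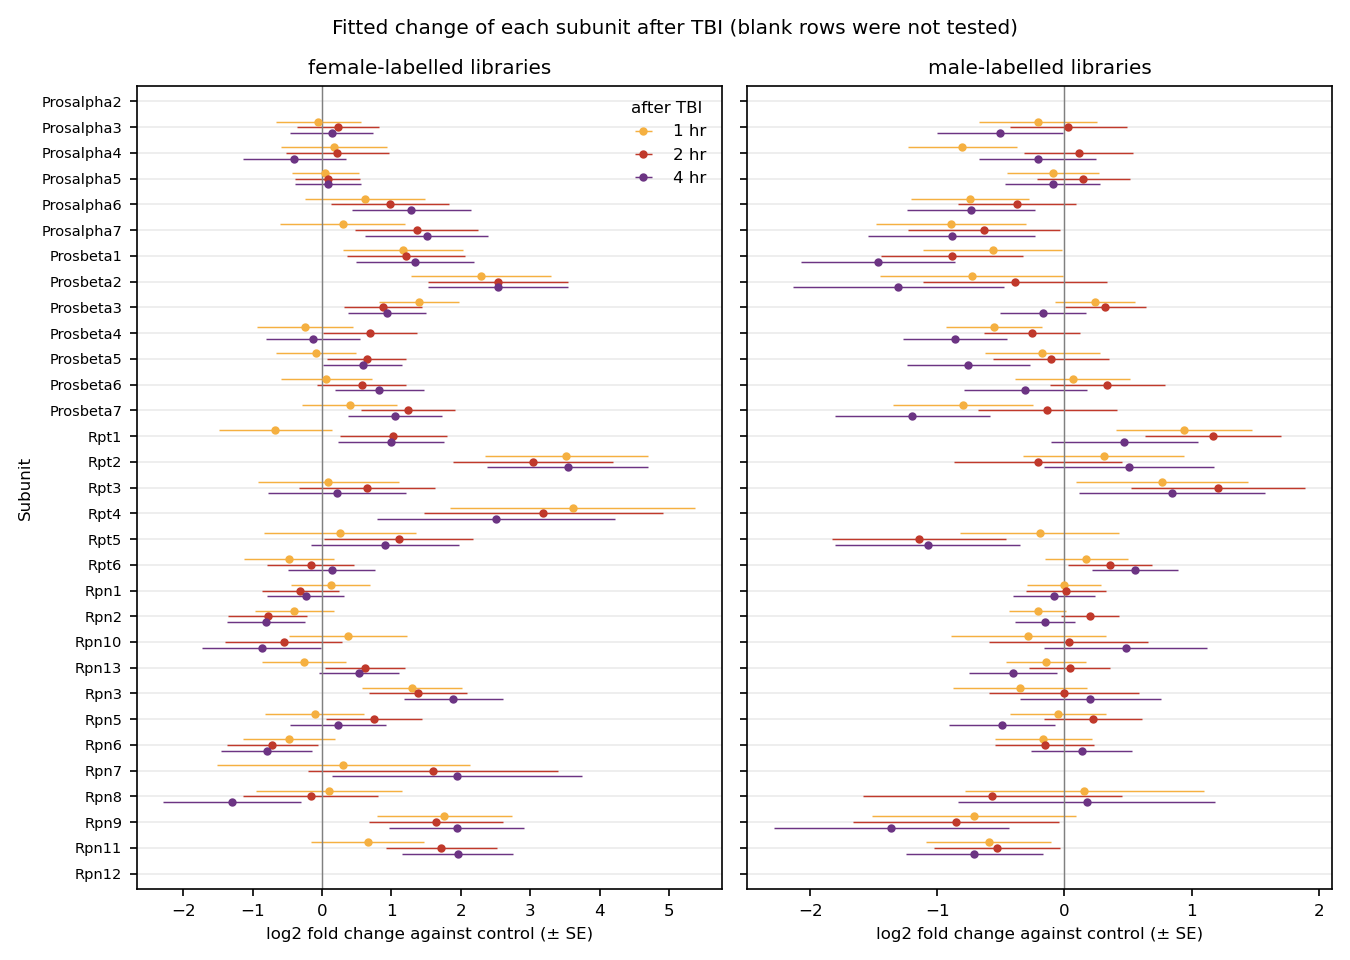
Fitted log2 fold change of each canonical subunit against control (points, with bars of 1 SE) at 1, 2 and 4 hr, in female-labelled (left) and male-labelled (right) libraries, from edgeR. The widest departures from 0 are those of Rpt2 and Rpt4 in female-labelled libraries (up to 3.54 and 3.61), and the Prosbeta1 values of male-labelled libraries are negative at each time (-0.56, -0.88 and -1.47).

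Among the cutting subunits, Prosbeta2, which carries the trypsin-like activity, was at 7.86, 11.3 and 0 CPM in female-labelled controls. It was at 89.7, 15.4 and 8.51 CPM at 1 hr, 25.8, 74.3 and 51.4 CPM at 2 hr and 19.5, 64.8 and 63.7 CPM at 4 hr. Every library at 2 and 4 hr lay above every control, while 1 hr replicate 3 lay within the range of the controls. The control without a read was the shallow replicate 3, whose 0 reads allow up to 46.0 CPM. The log2FC was 2.29 ± 1.02 (SE) at 1 hr, 2.54 ± 1.01 at 2 hr and 2.53 ± 1.01 at 4 hr, with adjusted p of 1.00, 0.57 and 0.93 by edgeR. Over pooled reads the ratio at 2 hr was 5.27 (95% interval 3.15 to 9.45, from 158 and 16 reads). Intervals of pooled ratios, here and below, cover counting error only and leave out the spread between brains. Without the 2 libraries that stand apart the log2FC was 2.14 at 2 hr and 2.28 at 4 hr.

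In male-labelled flies Prosbeta2 was at 16.2, 60.9 and 11.8 CPM in controls, 14.9, 31.9 and 12.2 CPM at 1 hr, 8.78, 42.7 and 15.3 CPM at 2 hr and 14.5, 0 and 15.9 CPM at 4 hr. Replicate 2 was the highest library in 3 of these groups and the groups overlapped at each time. The log2FC was -0.73 ± 0.72, -0.39 ± 0.73 and -1.31 ± 0.83 (SE).

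Prosbeta1, which carries the caspase-like activity, was at 59.0, 71.7 and 0 CPM in female-labelled controls, 184, 123 and 29.8 CPM at 1 hr, 77.3, 86.3 and 185 CPM at 2 hr and 47.4, 220 and 111 CPM at 4 hr. The 2 hr libraries all lay above the controls, and the other times overlapped them. Its log2FC was 1.17 ± 0.86, 1.21 ± 0.85 and 1.34 ± 0.85 (SE). Male-labelled values were 90.1, 260 and 82.9 CPM in controls, 85.2, 144 and 85.5 CPM at 1 hr, 57.1, 143 and 33.1 CPM at 2 hr and 52.1, 16.9 and 74.0 CPM at 4 hr. At 4 hr every library lay below every control, and Prosbeta1 had the smallest p of the subunits there (log2FC -1.47 ± 0.61 SE, adjusted p = 1.00 by edgeR). The pooled ratio was 0.416 (95% interval 0.304 to 0.563, from 61 and 151 reads), and 94 of the 151 control reads came from replicate 2, without which the log2FC was -0.62.

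Prosbeta5, which carries the chymotrypsin-like activity, was at 94.4, 223 and 138 CPM in female-labelled controls, 214, 139 and 80.9 CPM at 1 hr, 186, 307 and 243 CPM at 2 hr and 128, 359 and 212 CPM at 4 hr. In male-labelled flies it was at 112, 310 and 118 CPM in controls, 150, 210 and 150 CPM at 1 hr, 123, 280 and 107 CPM at 2 hr and 116, 67.6 and 134 CPM at 4 hr. No time was free of overlap with its control in either label. Its log2FC against control ran from -0.09 at 1 hr to 0.65 at 2 hr in female-labelled flies.

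Of the beta subunits that do not cut, Prosbeta3 had the second smallest p at 1 hr in female-labelled flies. It was at 94.4, 60.4 and 30.7 CPM in controls and 182, 231 and 111 CPM at 1 hr, so that the groups did not overlap (log2FC 1.40 ± 0.58 SE, adjusted p = 1.00 by edgeR). At 2 hr, with 113, 114 and 134 CPM, all libraries again lay above the controls. Prosbeta4 was at 93.7, 202 and 166 CPM in male-labelled controls and at 72.4, 101 and 91.6 CPM at 4 hr, where replicate 2 overlapped the controls (log2FC -0.86 ± 0.41 SE, adjusted p = 1.00 by edgeR, and -0.48 without control replicate 2).

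The alpha subunits differed among themselves. Prosalpha5, among the most counted subunits with 2788 reads, was at 67.6 to 255 CPM over all libraries, and its group means were 149 to 190 CPM. Group means of Prosalpha7 ran from 31.5 CPM in female-labelled controls to 100.2 CPM in female-labelled flies at 4 hr. Prosalpha4 had the smallest p of the subunits in male-labelled flies at 1 hr. It was at 54.1, 49.8 and 23.7 CPM in controls and at 32.5, 24.2 and 24.4 CPM at 1 hr, so that control replicate 3, with 2 reads, lay below the injured libraries (log2FC -0.80 ± 0.43 SE, adjusted p = 1.00 by edgeR). Prosalpha2 was too low to test. Its 109 reads at 2 hr in female-labelled flies against 1 read in controls gave a pooled ratio of 58.2 (95% interval 10.2 to 2320), and 91 of the 109 came from replicate 2.

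Of the ATPases, Rpt2, whose tail in yeast opens the gate of the core, had the smallest p of all subunits at each time in female-labelled flies. It was at 3.93, 1.61 and 0 CPM in controls (1, 2 and 0 reads), 14.8, 15.4 and 46.8 CPM at 1 hr, 18.9, 27.1 and 11.2 CPM at 2 hr and 33.5, 31.1 and 15.7 CPM at 4 hr. Every injured library lay above every control. The 0 reads of control replicate 3 allow up to 46.0 CPM, however, which is above 8 of the 9 injured values, and 1 hr replicate 2 held a single read. The log2FC was 3.52 ± 1.18, 3.04 ± 1.15 and 3.54 ± 1.16 (SE), with adjusted p of 1.00, 0.55 and 0.93 by edgeR. The pooled ratio, on 3 control reads, was 10.1 (95% interval 3.16 to 51.5) at 1 hr, 9.44 (3.06 to 47.2) at 2 hr and 13.3 (4.38 to 65.8) at 4 hr. The difference did not rest on the 2 libraries that stand apart, without which the log2FC was 3.56, 2.74 and 3.43.

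Male-labelled Rpt2 was at 21.6, 8.30 and 11.8 CPM in controls, 16.2, 19.3 and 20.9 CPM at 1 hr, 8.78, 15.0 and 12.7 CPM at 2 hr and 20.3, 0 and 29.9 CPM at 4 hr. These groups overlapped at each time, and they overlapped the injured female-labelled libraries too, so that the female-labelled controls had the lowest mean of the 8 groups (1.85 CPM).

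Rpt4 was also low in female-labelled controls, with 2 reads (3.93, 0.806 and 0 CPM), and stood at 31.9, 30.8 and 4.26 CPM at 1 hr. The pooled ratio there was 21.8 (95% interval 5.69 to 185), and the log2FC of 3.61 ± 1.77 (SE) had an unadjusted p of 0.059 by edgeR. At 2 hr 47 of its 50 reads came from replicate 2.

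Rpt1 was the ATPase with a small p in male-labelled flies. It was at 34.2, 19.4 and 35.5 CPM in controls, 40.6, 68.6 and 59.3 CPM at 1 hr and 48.3, 108 and 28.0 CPM at 2 hr. The 1 hr libraries all lay above the controls and 2 hr replicate 3 did not. The log2FC was 0.94 ± 0.53 at 1 hr and 1.17 ± 0.54 at 2 hr (SE), with adjusted p of 1.00 at both by edgeR. Without 2 hr replicate 2 the Rpt1 value at 2 hr was 0.32. Rpt3, second at 2 hr, was at 21.6, 2.77 and 0 CPM in controls and 26.3, 19.0 and 35.6 CPM at 2 hr, where replicate 2 overlapped control replicate 1 (log2FC 1.21 ± 0.69 SE, adjusted p = 1.00 by edgeR). Its value was 3.40 without control replicate 1 and 0.70 without control replicate 2.

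**Figure D3:**
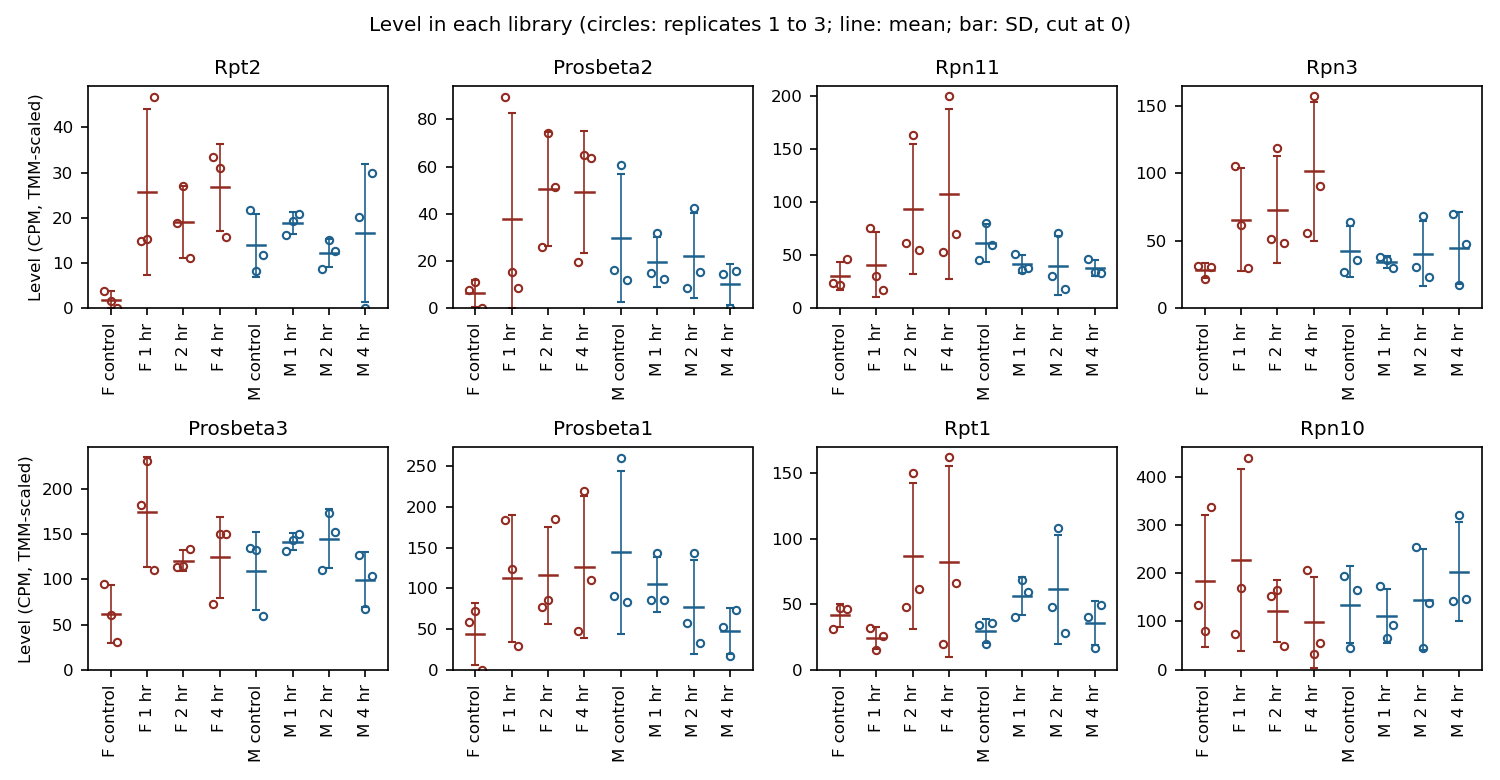
Level (CPM after TMM scaling) of 8 subunits in each group, with 1 circle per library, a line at the mean and a bar of 1 SD cut at 0, F for female-labelled and M for male-labelled. Rpt2 lies between 0 and 3.93 CPM in the female controls and between 11.2 and 46.8 CPM in the injured female libraries, whereas the Rpn10 groups overlap throughout.

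The receptor Rpn10 varied most among the scaffold subunits and receptors, from 32.4 to 438 CPM. In female-labelled flies it was at 134, 79.8 and 338 CPM in controls, 74.9, 170 and 438 CPM at 1 hr, 153, 166 and 48.4 CPM at 2 hr and 206, 32.4 and 55.0 CPM at 4 hr. In male-labelled flies it was at 195, 44.3 and 166 CPM in controls, 173, 65.7 and 92.5 CPM at 1 hr, 255, 44.2 and 137 CPM at 2 hr and 142, 321 and 146 CPM at 4 hr. Injured and control libraries overlapped at each time in both labels, and the log2FC was 0.37 ± 0.85, -0.55 ± 0.84 and -0.87 ± 0.85 (SE) in female-labelled flies.

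The other receptor, Rpn13, was steadier. It was at 47.2, 94.3 and 46.0 CPM in female-labelled controls, 57.8, 61.7 and 46.8 CPM at 1 hr, 70.4, 151 and 85.7 CPM at 2 hr and 83.6, 134 and 66.3 CPM at 4 hr. Male-labelled values were 79.3, 60.9 and 82.9 CPM in controls, 82.5, 62.8 and 57.6 CPM at 1 hr, 61.5, 92.4 and 68.7 CPM at 2 hr and 55.0, 50.7 and 59.9 CPM at 4 hr. Only the male-labelled 4 hr libraries lay apart from their controls, all below them, with a log2FC of -0.40 ± 0.35 (SE). The scaffold subunit Rpn1 had group means between 79.2 and 107 CPM, and the scaffold subunit Rpn2 between 151 and 276 CPM.

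In the lid, Rpn11, the deubiquitinase that removes the chain, was at 23.6, 21.8 and 46.0 CPM in female-labelled controls, 75.6, 30.8 and 17.0 CPM at 1 hr, 61.9, 164 and 55.1 CPM at 2 hr and 53.0, 200 and 69.8 CPM at 4 hr. All libraries at 2 and 4 hr lay above the controls, with log2FC of 1.72 ± 0.80 and 1.95 ± 0.81 (SE) and adjusted p of 0.69 and 0.93 by edgeR. Without the 2 libraries that stand apart the log2FC was 1.14 at 2 hr and 1.22 at 4 hr, with unadjusted p of 0.12 and 0.094. Male-labelled Rpn11 was at 45.1, 80.2 and 59.2 CPM in controls, 51.4, 35.8 and 38.4 CPM at 1 hr, 30.7, 71.1 and 17.8 CPM at 2 hr and 46.3, 33.8 and 33.5 CPM at 4 hr, with overlap at each time.

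Rpn3, a structural subunit of the lid, had the second smallest p at 4 hr in female-labelled flies. It was at 31.5, 21.8 and 30.7 CPM in controls and 55.8, 157 and 90.7 CPM at 4 hr, and at 2 hr, with 51.5, 118 and 48.4 CPM, it also lay above every control. The 4 hr log2FC was 1.89 ± 0.71 (SE, adjusted p = 0.93 by edgeR), and 1.49 without the 2 libraries that stand apart. Rpn9 was at 15.7, 16.1 and 15.3 CPM in female-labelled controls and at 25.1, 92.0 and 66.3 CPM at 4 hr. Those control values rest on 4, 20 and 1 reads, and 3 counts in control replicate 3 were worth 46.0 CPM, so their closeness means little. Rpn12 was too low to test, with 114 reads over all libraries and 0 reads in the male-labelled 4 hr group, and Rpn7, with 180, was tested only where female-labelled libraries entered the fit.

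Counting subunits whose libraries all lay on one side of the controls, female-labelled flies had 3 above and 0 below at 1 hr, 8 above and 0 below at 2 hr and 7 above and 0 below at 4 hr. Over all genes tested such genes were 3.3% above and 3.8% below (1 hr), 9.6% above and 5.15% below (2 hr), and 7.81% above and 4% below (4 hr). The 8 at 2 hr were Prosbeta1, Prosbeta2, Prosbeta3, Rpn11, Rpn3, Rpn9, Rpt1 and Rpt2. Male-labelled flies had 1 above (Rpt1) and 1 below (Rpn2) at 1 hr, against 5.61% and 3.58% of all genes, and 0 on either side at 2 hr, against 2.5% and 2.06%. At 4 hr 0 lay above and 4 below (Prosbeta1, Prosbeta7, Rpn13, Rpt5), against 3.71% and 3.64%.

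By the test, male-labelled flies had 0 subunits past the nominal limits at 1 hr, against 0.581% of genes higher and 0.335% lower. At 2 hr 1 was higher and 0 lower (Rpt1), against 1.1% and 0.671%, and at 4 hr 0 were higher and 1 lower (Prosbeta1), against 0.38% and 0.939%. DESeq2 gave 0, 0 and 1 and limma-voom 0, 0 and 0. The 0 at 1 hr became 1 without control replicate 1. The 1 at 2 hr became 0 without control replicate 2 or 3, any 1 hr library, or 4 hr replicate 1 or 3, and 5 lower without 2 hr replicate 2. With the replicate block it was also 0. The 1 at 4 hr became 0 without control replicate 2 or 4 hr replicate 1 or 2, and 4 without control replicate 1, 3 without 2 hr replicate 2 and 2 without 2 hr replicate 3.

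The male-labelled median log2FC over 27 subunits was -0.20, -0.00 and -0.31 at 1, 2 and 4 hr, beside -0.04, 0.02 and -0.02 over all genes. Without control replicate 2, which had the highest subunit sum of its group, it was 0.16, 0.35 and -0.10. Without 2 hr replicate 2 it was -0.35 at 2 hr. The neuronal marker sum was 1810 to 2946 CPM in controls, 2279 to 2622 at 1 hr, 1658 to 2907 at 2 hr and 2586 to 2740 at 4 hr, and its part in these medians was not tested.

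With the 3 times pooled, no subunit was called in either label by edgeR, DESeq2 or limma-voom, and neither was any gene. In female-labelled flies 4 subunits were nominally higher and 0 lower (Prosbeta2, Prosbeta3, Rpn3, Rpt2), against 4.43% and 0.203% of all genes, and DESeq2 gave 7 and limma-voom 3. The smallest p were those of Rpt2 (log2FC 3.37 ± 1.08 SE) and Prosbeta2 (2.45 ± 0.92), both with an adjusted p of 0.94 by edgeR. The 4 became 2 without any 1 control or without 1 hr replicate 1, and 7 without 1 hr replicate 3. In male-labelled flies 0 subunits reached the nominal limits, against 0.514% of genes higher and 0.715% lower, and DESeq2 and limma-voom also gave 0. The smallest p were those of Prosbeta1 (log2FC -0.97 ± 0.45 SE) and Rpt1 (0.86 ± 0.47), both with an adjusted p of 1.00. Without control replicate 2 the Prosbeta1 value was -0.13. The 0 became 2 (1 higher, 1 lower) without control replicate 1, 1 without control replicate 3, 1 hr replicate 2 or 4 hr replicate 3, and 4 without 2 hr replicate 2.

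Between the control groups, 0 subunits and 0% of the 5462 genes were called in either direction by edgeR, and DESeq2 and limma-voom called 0 subunits. Rpt2 was nominally lower in the female-labelled controls (log2FC -2.69 ± 0.99 SE, adjusted p = 1.00), and it was the 1 subunit past the nominal limits, against 0.476% of genes higher and 1.48% lower. DESeq2 gave 2 such subunits and limma-voom 1. Its pooled ratio was 0.120 (95% interval 0.0225 to 0.420, from 3 and 16 reads). Prosbeta1 followed, with a log2FC of -1.52 ± 0.77 (SE, adjusted p = 1.00), which was -0.76 without male-labelled control replicate 2. The count of 1 became 0 without female-labelled control replicate 2, 2 without female-labelled control replicate 1 or 1 hr replicate 1 or 3, 3 without male-labelled control replicate 1 and 4 without male-labelled control replicate 3. Every female-labelled control lay below every male-labelled control for Prosalpha6, Prosbeta1, Prosbeta2 and Rpt2, and 0 subunits lay above, against 3.84% of genes below and 3.52% above.

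The change of female-labelled flies was set against that of male-labelled flies in a fit of all 24 libraries. By edgeR 0 subunits and 0% of genes were called at each time, and DESeq2 and limma-voom called 0 subunits. Nominally, 2 subunits were higher and 0 lower at 1 hr, against 1.23% and 0.494% of genes. At 2 hr 3 were higher and 0 lower, against 4.91% and 0.531%, and at 4 hr 6 were higher and 0 lower (Prosbeta1, Prosbeta2, Prosbeta7, Rpn11, Rpn9, Rpt2), against 5.68% and 0.677%. DESeq2 gave 3, 7 and 7 and limma-voom 1, 4 and 3. The difference for Rpt2 was 3.16 ± 1.23 (SE) at 1 hr and 3.29 ± 1.23 at 2 hr, with adjusted p of 1.00 and 0.83. That for Prosbeta2 was 2.97 ± 1.26 at 1 hr and 3.79 ± 1.31 at 4 hr, with adjusted p of 1.00 and 0.73. The 1 hr value of Prosbeta2 was 0.92 without female-labelled 1 hr replicate 1 and 1.87 without male-labelled control replicate 2. The difference for Rpn11 was 2.37 ± 0.94 at 2 hr and 2.69 ± 0.97 at 4 hr, with adjusted p of 0.85 and 0.73. Each of these rests on both control groups, of which the female-labelled one was the lower.

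Single libraries moved these counts as well. At 1 hr the 2 became 1 without female-labelled control replicate 1 or 2, female-labelled 1 hr replicate 1, male-labelled control replicate 2 or male-labelled 1 hr replicate 1 or 3, and 4 without female-labelled 1 hr replicate 3. At 2 hr the 3 became 6 without female-labelled 2 hr replicate 1, 9 without male-labelled 2 hr replicate 2, 5 without male-labelled control replicate 3 and 1 without male-labelled control replicate 2 or 2 hr replicate 3. At 4 hr the 6 became 13 without female-labelled 4 hr replicate 1 and 2 without female-labelled 4 hr replicate 2 or male-labelled control replicate 2.

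The ratio of core to regulatory subunits, a quantity within each library, separated libraries rather than groups. Summed core CPM divided by summed regulatory CPM was 0.935, 1.05 and 0.588 in female-labelled controls, and after injury 1.51, 1.10 and 0.598 (1 hr), 1.00, 1.40 and 1.81 (2 hr), and 0.628, 1.74 and 1.59 (4 hr). In male-labelled flies it was 0.793, 2.31 and 0.952 in controls, and after injury 0.880, 1.47 and 1.15 (1 hr), 0.770, 1.85 and 0.885 (2 hr), and 0.878, 0.695 and 0.919 (4 hr). The highest ratio thus belonged to an uninjured brain, male-labelled control replicate 2, and the lowest to another, female-labelled control replicate 3. Their neuronal marker sums were 1810 and 3039 CPM, and their total counts 418494 and 52388. In 6 of the 8 groups the library with the highest ratio was also the one with the lowest neuronal marker sum, and in 6 the one with the lowest glial marker sum (848 to 2159 CPM over all libraries). Depth went along with the ratio too. The library with the highest ratio had the most counts in the female-labelled control, 1 hr and 4 hr groups. So it did in each male-labelled injured group, but not in the female-labelled 2 hr or male-labelled control group. The levels share each library's scaling, and the part of these markers or of depth in the ratio was not tested.

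**Figure D4:**
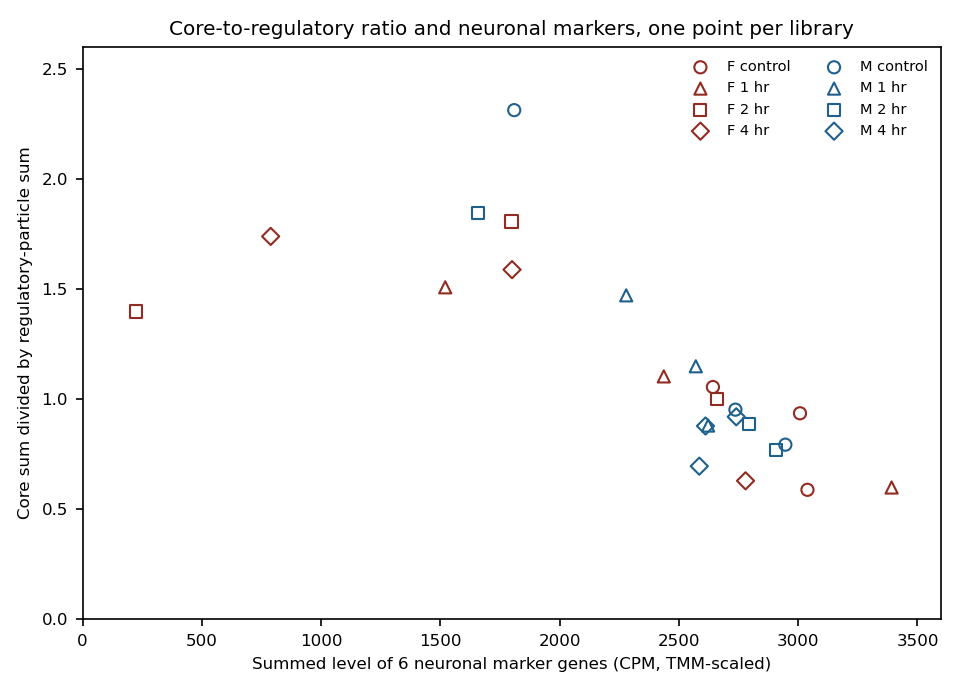
Core-to-regulatory ratio of summed subunit CPM (vertical axis) against the summed CPM of 6 neuronal marker genes (horizontal axis), with 1 point per library, colour for the sex label and shape for the time. Male control replicate 2 has the highest ratio (2.31, at 1810 CPM), female control replicate 3 the lowest (0.588, at 3039 CPM) and female 2 hr replicate 2 the lowest marker sum (224 CPM, at a ratio of 1.40).

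Single subunits also differed between brains of 1 group. In male-labelled control replicate 2, Prosbeta1 was at 260 CPM, Prosbeta7 at 205 CPM and Prosalpha7 at 136 CPM, each the highest of the 3 controls. In the same library Rpn10 (44.3 CPM), Rpn6 (52.6 CPM) and Rpn8 (0 reads, which allows up to 8.30 CPM) were the lowest of the 3. Rpn6 and Rpn8 are lid subunits and Rpn10 a receptor. Other lid subunits were at their highest of the 3 there, with Rpn3 at 63.6 CPM, Rpn5 at 63.6 CPM, Rpn9 at 91.3 CPM and Rpn11 at 80.2 CPM. In male-labelled 2 hr replicate 2, Rpn8 had 2 reads (1.58 CPM) against 52.7 and 33.1 CPM in replicates 1 and 3, while Prosbeta7 was at 231 CPM against 87.8 and 38.2 CPM. In female-labelled 1 hr replicate 1 Rpn8 was at 3.71 CPM (5 reads) against 92.5 and 42.6 CPM in the others.

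**Figure D5:**
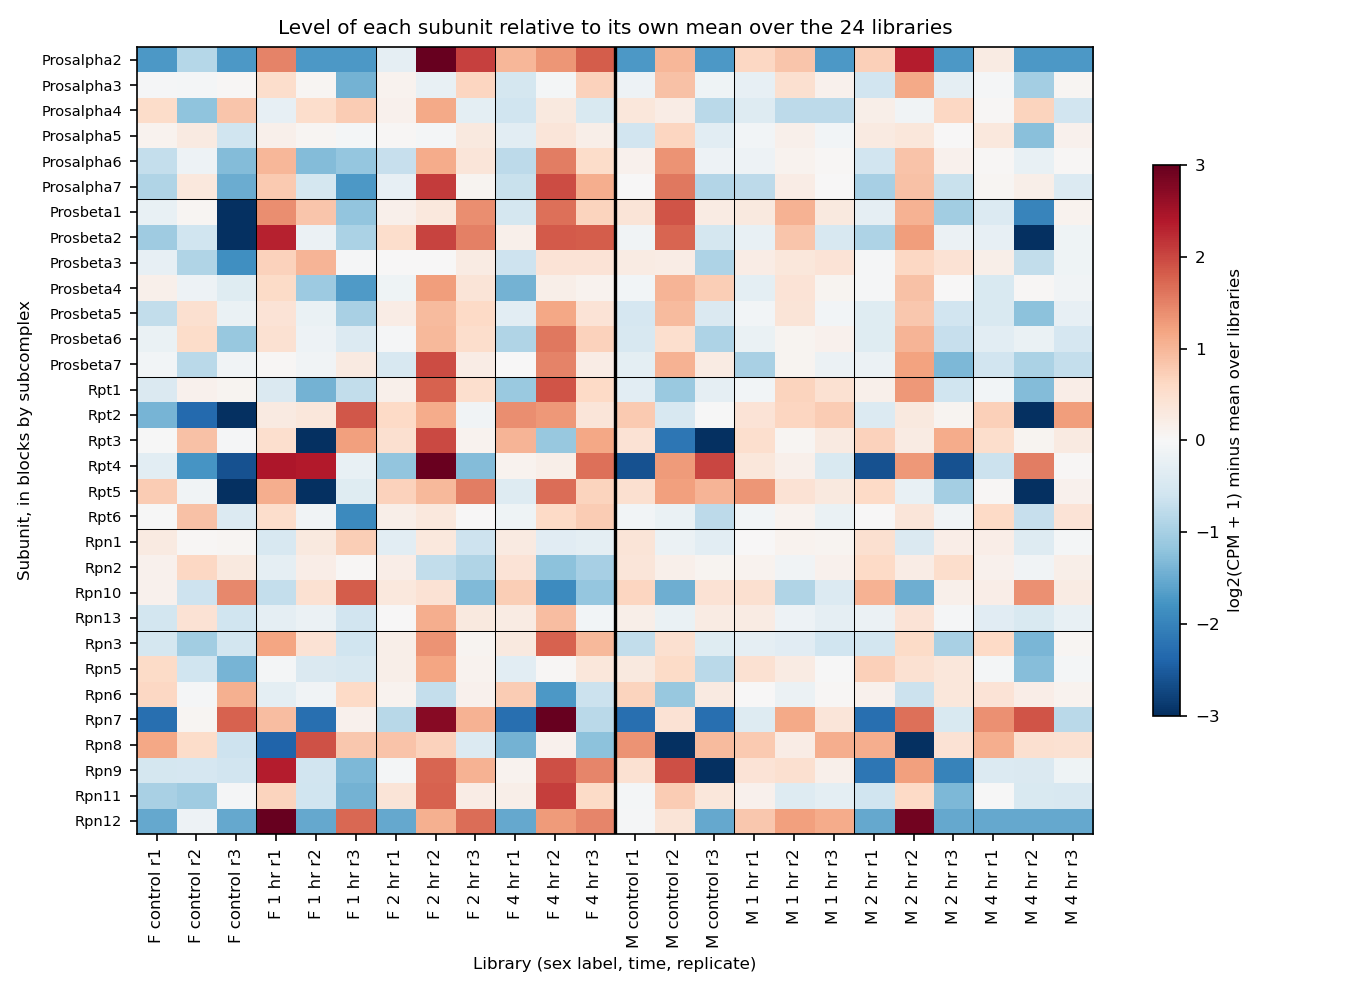
Level of each canonical subunit with a count (rows, in blocks by subcomplex) in each library (columns), as log2(CPM + 1) minus the subunit's mean over the 24 libraries, with shades that stop at 3 on either side and the heavy line between female-labelled and male-labelled libraries. Male control replicate 2 and male 2 hr replicate 2 are high in Prosbeta1 (260 and 143 CPM) and low in Rpn10 (44.3 and 44.2 CPM) and Rpn8 (0 and 1.58 CPM).

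The wider ubiquitin pathway was followed with 32 listed genes, of which 25 were tested in female-labelled and 19 in male-labelled libraries. They are assembly factors and regulators of the proteasome, deubiquitinases that sit on it, ubiquitin and its activating enzyme, shuttle factors and the p97 ATPase, the factors Cnc, Keap1, maf-S and Pngl, and the COP9 signalosome, a complex related to the lid. None was called at any time in either label by edgeR, DESeq2 or limma-voom. By edgeR 0 of 25 were nominally higher at 1 hr in female-labelled flies, 4 at 2 hr (PI31, TER94, Ubi-p5E, Usp14) and 2 at 4 hr (PI31, Usp14), with 0 lower at each time, beside the shares over all genes given above. Without the 2 libraries that stand apart 21 were tested, and 0, 0 and 2 (TER94, Usp14) were nominally higher. DESeq2 gave 0, 4 and 1 higher and limma-voom 1, 0 and 3 higher and 0, 0 and 1 lower. In male-labelled flies 0 of 19 passed the nominal limits at each time by edgeR and DESeq2, and limma-voom gave 1 lower at 1 hr. The median log2FC was 0.29, 0.53 and 0.54 in female-labelled and -0.09, -0.02 and -0.17 in male-labelled flies at 1, 2 and 4 hr. Without the 2 libraries the female-labelled medians were 0.24, 0.19 and 0.20.

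TER94, the fly p97 that extracts tagged proteins, was at 3.93, 9.67 and 0 CPM in female-labelled controls and 12.03, 267 and 38.0 CPM at 2 hr (log2FC 3.94, SE 1.199, adjusted p = 0.52 by edgeR). Ubi-p5E, a polyubiquitin gene, was at 189, 210 and 246 CPM in controls and 215, 2482 and 552 CPM at 2 hr (log2FC 2.29 ± 0.85 SE, adjusted p = 0.55 by edgeR). For both, the highest value belonged to replicate 2, which stands apart, and without it and 4 hr replicate 2 the log2FC was 1.94 for TER94 and 0.87 for Ubi-p5E. Usp14, a deubiquitinase bound to the base, was at 15.7, 5.64 and 15.3 CPM in female-labelled controls and 33.5, 174 and 56.7 CPM at 4 hr (log2FC 3.02 ± 0.95 SE, and 2.16 without the 2 libraries that stand apart). PI31, a proteasome regulator, had 1 read in the female-labelled controls and 50 at 2 hr. In male-labelled flies at 2 hr the smallest p were those of maf-S, the partner of Cnc (log2FC -0.52 ± 0.25 SE), and Usp14 (0.96 ± 0.66), both with an adjusted p of 1.00 by edgeR.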

How the data were processed

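Gene expression was measured in 24 libraries of single brains. The table deposited by the authors gives unscaled read counts per gene and library. Per the paper and the submitters' processing notes, reads were de-multiplexed with CASAVA 1.8.2, aligned with STAR 2.4 to the dm3 build and counted with HTSeq. No source used here gives HTSeq's version, annotation or strand setting, or says whether molecular identifiers were used. The authors' edgeR 3.22.3 comparison tables, which hold log2 fold changes, log CPM, likelihood ratios, p-values and FDR, were not used.

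Members were found by symbol, and names and overlapping genes were read from RefSeq and Ensembl annotations of Release 6, so no dm3 coordinate is given. Counts were tested in R 4.3.3 with edgeR 4.0.16 (quasi-likelihood F test, TMM factors, filterByExpr) and Benjamini-Hochberg adjustment over all genes tested. Called genes had an adjusted p below 0.05 and |log2FC| above 1, and nominal ones an unadjusted p below 0.05 and the same fold. Comparisons with control used the 12 libraries of a sex label and comparisons between labels used all 24. The standard error (SE) of a log2 fold change was taken from its F statistic. Levels are CPM after TMM scaling over the 24 libraries, and 3 counts in a library were worth 1.99 to 50.7 CPM. Pooled read ratios carry exact 95% intervals, which cover counting error only. Tests were first tried on simulated data.

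Alternatives were DESeq2 1.42.0, limma-voom (limma 3.58.1), edgeR's likelihood ratio test, RLE factors, library size alone, no filter or a stricter one (10 counts in 6 libraries), other libraries in the fit, a replicate block, exclusion of 2 libraries that stand apart, and each library left out in turn. Same-numbered libraries deviated together in the male-labelled groups at 1 hr and control (correlations of 0.13 to 0.38, above 0.1 in 3 of 3 pairs) and at 2 hr and control (0.18 to 0.56, 3 of 3), and in 0 pairs elsewhere, so the block applies to those 2 comparisons. No source used here says what the numbers stand for. Named members are any called, otherwise the 2 with the smallest p in each comparison. The subunits Prosbeta1, Prosbeta2, Prosbeta5, Rpn11, Rpn10 and Rpn13 and every paralogue are described throughout, as are the 2 ubiquitin pathway genes with the smallest p at 2 hr in each label. Other members named with values were chosen after those values were seen. The members, the lists and these rules were chosen with earlier results of these data known.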

Additional observations from a re-analysis of the deposited data

How the results depend on the processing

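The count of called subunits stayed at 0 in all 308 combinations of comparison and alternative. The median log2FC over subunits changed sign in some of them, with a range of -0.27 to 0.50 in female-labelled flies at 1 hr when 1 library was left out. At 4 hr in female-labelled flies it was 0.27 without the 2 libraries that stand apart, and leaving out 1 library gave 0.22 to 1.19. Leaving out 1 library gave -0.41 to 0.16 in male-labelled flies at 1 hr, -0.35 to 0.35 in male-labelled flies at 2 hr and 0.36 to 0.94 for the difference between labels at 2 hr. The 24 named log2FCs kept their direction in all 614 alternative values, but not their size. They were picked for a small p in these same libraries, and each alternative reuses most of the counts, so the kept direction is no independent support. Leaving out 1 library gave -1.29 to -0.13 for Prosbeta1 in all injured male-labelled flies, -1.84 to -0.62 for it at 4 hr, 0.32 to 1.52 for Rpt1 and 0.70 to 3.40 for Rpt3 at 2 hr, and 0.92 to 3.51 for the difference of Prosbeta2 between labels at 1 hr.

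The number of subunits past the nominal limits moved by more than 1.5 times in 82 of 308 combinations. Against 3, 3 and 4 in the female-labelled groups, by time, leaving out the 2 libraries gave 5, 1 and 3. DESeq2 gave 6 and limma-voom 1 at 2 hr. For all injured female-labelled flies, the 4 became 7 by DESeq2 and 2 by library size alone. The 1 subunit of male-labelled flies at 2 hr became 0 by DESeq2, limma-voom, library size alone, a fit of all 24 libraries and the replicate block. That of male-labelled flies at 4 hr became 0 by limma-voom, the 24-library fit and the block, and 2 with no filter. For the controls, the 1 became 2 by DESeq2, the likelihood ratio test and no filter, and 3 without the 2 libraries. For the differences between labels, the 2 at 1 hr became 1 by limma-voom, 5 with other libraries in the fit and 4 without the 2 libraries, the 3 at 2 hr became 7 by DESeq2 and 5 by the likelihood ratio test, and the 6 at 4 hr became 3 by limma-voom. The cause was not tested.

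With the replicate block, subunits past the nominal limits numbered 2, 2 and 3 in female-labelled flies at 1, 2 and 4 hr, 0 in male-labelled flies at each time, and 6 and 7 for the differences between labels at 2 and 4 hr. The block changed no call. The same-numbered libraries of the female-labelled groups and of male-labelled flies at 4 hr share only a number.

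Scaling moved the median of all genes. By library size alone it was -0.26 and -0.19 in female-labelled flies at 2 and 4 hr, where the subunit medians were 0.39 and 0.56. By RLE factors it was 0.14 at 2 hr, where the subunit median was 1.00.

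Depth limits the low subunits: in 6 libraries 3 counts were worth more than 12 CPM, above the median level over libraries of Prosalpha2 (2.31 CPM), Rpt4 (5.43 CPM), Rpn7 (4.14 CPM) and Rpn12 (1.71 CPM).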
